A study of Mus musculus with 11 samples.

Results

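Podocytes sorted from PodTOM control mice on day 5 of nephrotoxic serum nephritis (NTN) were compared with podocytes sorted from untreated PodTOM mice, gene by gene. The study is a set of 11 RNA sequencing libraries of FACS-sorted mouse podocytes. Described here are the 6 libraries whose genotype is labelled WT, of which 3 are NTN and 3 untreated (the labels call these healthy). The other 5 libraries come from mice that lack Myd88 in podocytes (MyD88pko) and enter as a comparison at the end. All mice were on a C57BL/6N background (C57BL/6 in the labels). The sorted controls carried 1 Cre allele (PodCre/wt) and 2 wild-type Myd88 alleles (MyD88wt/wt), so NTN and untreated mice both expressed Cre recombinase and the red fluorophore mTomato from a podocyte promoter. NTN mice were males of 8 to 16 weeks that received 9 µl per gram body weight of sheep serum against glomerular basement membrane into the tail vein on 2 consecutive days. Age was not given for the untreated mice of these libraries, nor was the number of mice behind a library. The p-values therefore compare 3 with 3 libraries, against a spread between libraries estimated over all 11 in the fit. The paper states male sex for mice in which NTN was induced, and not for the untreated mice sorted here. Of the 34547 genes with annotated transcripts, 21200 were tested and 9323 are described: protein-coding genes whose mean reached 10 CPM (counts scaled to a common library size and corrected for composition) in the NTN or the untreated libraries, leaving out symbols that start with Olfr, Vmn or Gm followed by a digit. Of the described genes, 8099 reached 10 CPM in both groups, 829 in NTN only and 395 in untreated only. A gene that reached the level in NTN only had to be higher there to be described, so the total counts are also given for the genes that reached it in both groups. Counts within gene lists were not split this way. A list given below without its number in NTN only may still hold such members.

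Podocytes are postmitotic epithelial cells whose interlocking foot processes, joined by the slit diaphragm, cover the outside of glomerular capillaries and hold back plasma protein. In nephrotoxic nephritis, antibodies bind the glomerular basement membrane, leukocytes enter the glomerulus and podocytes lose their foot process architecture while their actin cytoskeleton is rearranged. Injured podocytes are known to express chemokines, matrix proteins and contractile proteins, and to lose transcripts of the differentiated cell.

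The 3 NTN libraries held 20080140 to 26502298 estimated counts over all transcripts, and the 3 untreated libraries held 14563271 to 19483013. Mitochondrially encoded transcripts took 4.85%, 4.71% and 3.33% of counts in NTN replicates 1 to 3, and 6.25%, 5.15% and 5.36% in untreated replicates 1 to 3. Described nuclear genes took 78.6%, 78.2% and 80.1% of counts in NTN libraries, against 88%, 88.6% and 88.3% in untreated libraries. Genes with Gm symbols, mostly predicted genes, took 12%, 13.5% and 13.3% of counts in NTN libraries and 3.32%, 3.59% and 3.64% in untreated libraries. Olfactory and vomeronasal receptor genes (Olfr and Vmn symbols) summed to 10362 to 15833 CPM in NTN libraries and to 6827 to 7126 CPM in untreated libraries. A fit with this receptor signal as a covariate was made, and its counts are given below as those with the covariate. NTN and untreated libraries do not overlap in that signal, so it and the disease cannot be told apart in such a fit. The sources say that libraries were pooled for sequencing without naming them, so sequencing batch and disease cannot be told apart either. On the first principal component of log2(CPM + 0.5) over described genes, which held 67.4% of the variance, the NTN libraries lay at 43.4, 33.5 and 23.5 and the untreated libraries at -40.6, -29.9 and -29.9. The second component held 14.9% and set untreated replicate 1 (30.2) apart from the other libraries. Between pairs of libraries, the SD of the log2 ratio over described genes was 0.312 to 0.455 within NTN, 0.332 to 0.545 within untreated and 0.660 to 0.929 across the groups.

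The podocyte label held in both groups. The 10 podocyte markers summed to 32210 to 37510 CPM in NTN libraries and 41930 to 54510 CPM in untreated libraries, with 1 marker higher and 5 lower in NTN. Markers of other glomerular cells were far below them in both groups. Between 139 and 272 CPM in NTN libraries, against 53.3 to 92.6 CPM in untreated libraries, came from 10 endothelial markers, of which 7 were called higher. The 10 mesangial and smooth muscle markers, summed to 398 to 606 CPM in NTN and 114 to 166 CPM in untreated libraries, with 4 of 10 called higher, but most of the NTN sum was Tagln. Without Tagln the other 9 summed to 229, 207 and 134 CPM in NTN libraries, against 148, 91.3 and 104 CPM in untreated libraries, and the groups overlapped. The 4 called higher were Tagln, Acta2, Itga8 and Gata3. Leukocyte lists were low in both groups. The macrophage and monocyte markers summed to 81.7 to 105 CPM in NTN and 88 to 109 CPM in untreated libraries, with 2 higher and 1 lower of 13. Neutrophil markers summed to 27.1 to 44.5 CPM in NTN and 8.81 to 18.1 CPM in untreated libraries (1 higher of 6), lymphocyte markers to 32.1 to 44.1 CPM in NTN and 14.1 to 20.5 CPM in untreated libraries (2 higher of 10), and pan-leukocyte markers to 9.1 to 23.6 CPM in NTN and 5.64 to 10.96 CPM in untreated libraries (1 higher of 5). Most of the neutrophil sum was Cxcr2, with 40.9, 23.5 and 25.6 CPM in NTN and 8.5, 16.6 and 14.7 CPM in untreated libraries. Every other neutrophil marker was at 3.58 CPM or less in every library. Parietal epithelial markers summed to 232 to 283 CPM in NTN and 212 to 281 CPM in untreated libraries (1 higher and 1 lower of 6). Proximal tubule markers (22.9 to 41.7 CPM in NTN, 17.4 to 67.5 CPM in untreated), distal and collecting tubule markers (41.3 to 71.0 CPM in NTN, 21.1 to 122.8 CPM in untreated) and red cell markers (1.52 to 4.402 CPM in NTN, 2.14 to 8.16 CPM in untreated) had no member past the threshold.

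More described genes were lower than higher in NTN under the scaling used here, an order that turned when scaling over the described genes alone, and the rises were larger than the falls. With edgeR's quasi-likelihood test at an adjusted p under 0.05, 1349 described genes were higher in NTN (14.5%) and 1859 were lower (19.9%), and these shares are the background for every gene list below. Over all 21200 genes tested, 3381 were higher (15.9%) and 2106 lower (9.93%). Among the 8099 genes at 10 CPM in both groups, 854 were higher (10.5%) and 1729 lower (21.3%). Scaling over the described genes alone put the median log2 fold change at 0.00 in place of -0.13 and the split at 1748 higher (18.7%) and 1469 lower (15.8%). Of the higher genes, 768 rose at least 2-fold, 133 at least 4-fold and 23 at least 8-fold, with a median log2 fold change of 1.08. Of the lower genes, 336 fell at least 2-fold, 11 at least 4-fold and 0 at least 8-fold, with a median size of 0.717 on the log2 scale. The higher genes together held 133844 CPM in NTN and 69736 CPM in untreated libraries, and the lower genes 269599 CPM in NTN and 460977 CPM in untreated libraries. The 3 NTN libraries all lay above the 3 untreated libraries for 1903 described genes (20.4%) and all below them for 2790 (29.9%). Leaving out any 1 of the 6 libraries kept 793 of the higher and 1040 of the lower calls in all 6 fits, and the number lower was 1176 without NTN replicate 1.

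**Figure D1:**
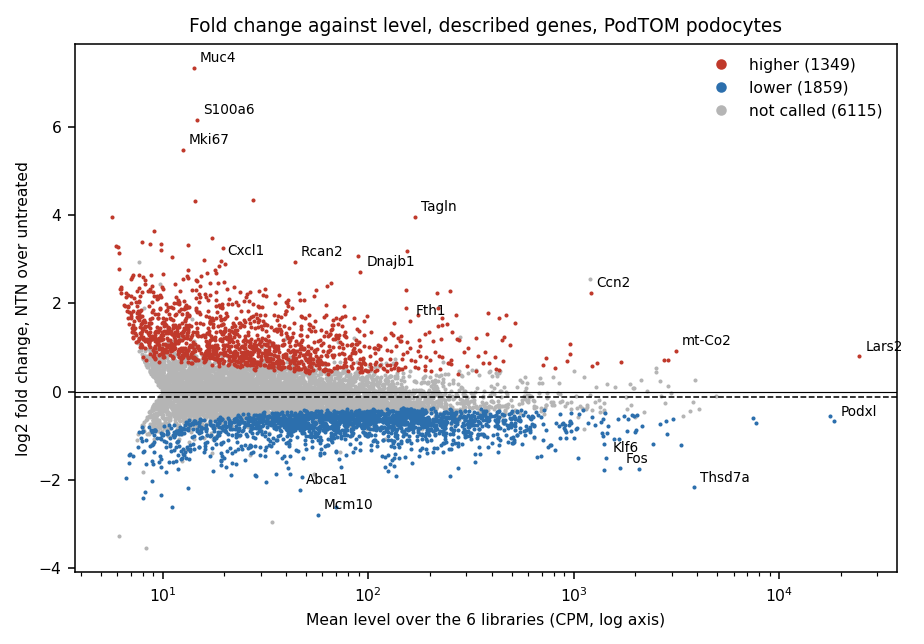
Each point is a described gene, with its mean CPM over the 6 PodTOM libraries on a log axis and its log2 fold change, NTN over untreated, on the vertical axis; red points are the 1349 higher and blue points the 1859 lower genes, the dashed line is the median of -0.13, and Muc16 and Sly, at 0 in every untreated library, are not drawn. The largest rises lie at low levels on the left, and Podxl and Thsd7a, far to the right, are lower in NTN.

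The largest fold changes belonged to genes that were near or at 0 in untreated podocytes. Muc16, a transmembrane mucin, had 62, 39.4 and 16.9 CPM in NTN libraries, against 0, 0 and 0 CPM in untreated libraries. With 3 counts over the untreated group as the floor (0.0628 CPM), it was at least 628-fold higher (edgeR adjusted p = 1.51e-04). Muc4, another transmembrane mucin, had 62, 11.3 and 11.2 CPM in NTN libraries, against 0.309, 0.159 and 0.0629 CPM in untreated libraries (log2 fold change 7.33 ± 1.602, adjusted p = 0.0146 by edgeR), but its call was lost without any 1 of the untreated replicates and in counts rescaled for effective transcript length (called length-rescaled counts from here on, 2.57), and its log2 fold change was 6.03 without NTN replicate 1. NTN replicate 1 was the highest NTN library for both mucins, and stood far above the others for Muc4. Sly, a multi-copy Y-linked gene whose copies share reads, had 25.3, 4.58 and 5.07 CPM in NTN libraries, against 0, 0 and 0 CPM in untreated libraries, at least 186-fold higher over the same floor. The sex of these untreated mice is not stated in the paper, and its part in the values of Sly was not tested. S100a6, a calcium-binding protein, had 40.1, 16.6 and 30.9 CPM in NTN libraries, against 0, 0.742 and 0.377 CPM in untreated libraries (log2 fold change 6.15 ± 0.62, and 7.08 without untreated replicate 2). Mki67, the proliferation marker, had 43.3, 18.9 and 11.6 CPM in NTN libraries, against 0, 0.795 and 0.754 CPM in untreated libraries (log2 fold change 5.48 ± 1.04, 4.82 without NTN replicate 1, and not called with the covariate). These genes were chosen among those whose groups do not overlap. Receptor genes of the nose and Gm genes also had more signal in every NTN library, and the part of such signal in the folds of genes at or near 0 in untreated libraries was not tested. Of the 12 described genes with the largest rise, 11 reached 10 CPM in NTN only and 11 were highest in NTN replicate 1, which also had the largest receptor sum. Over all 1349 higher genes, 644 (47.7%) were highest in NTN replicate 1, with 292 of 495 (59.0%) among those at 10 CPM in NTN only and 352 of 854 (41.2%) among those at 10 CPM in both groups.

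The other 7 of these 12 rises spanned log2 fold changes of 3.38 to 4.33. They were 3110070M22Rik, Igfbp2 (an insulin-like growth factor binding protein), Tagln, Bok (a BCL-2 family member), Sfrp2 (a secreted WNT modulator), Ifitm3 and Spns3. Tagln differed from the rest by its level: it had 377, 313 and 264 CPM in NTN libraries, against 17.7, 23.1 and 20.4 CPM in untreated libraries, a log2 fold change of 3.96 ± 0.204 (edgeR adjusted p = 1.24e-08), and was the only one of the 12 above 10 CPM in both groups. Igfbp2 had 46.4, 25.2 and 10.9 CPM in NTN libraries, against 0.772, 1.27 and 2.01 CPM in untreated libraries. Sfrp2 had 21.9, 25.4 and 3.41 CPM in NTN libraries, against 0.695, 2.54 and 0.691 CPM in untreated libraries, with NTN replicate 3 close to untreated replicate 2, and its log2 fold change of 3.65 was 4.56 without that untreated library. Bok had 12.4, 10.2 and 9.57 CPM in NTN libraries, against 0.232, 0.318 and 1.51 CPM in untreated libraries, a log2 fold change of 3.95 that was 5.23 without untreated replicate 3. The call of 3110070M22Rik (95.7, 37 and 24.5 CPM in NTN libraries, against 2.63, 2.17 and 3.02 CPM in untreated libraries) was lost without any 1 of the untreated replicates, and its log2 fold change of 4.33 was 3.58 without NTN replicate 1.

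The 12 largest falls were smaller and their untreated levels mostly low, with 7 of 12 at 10 CPM in untreated libraries only. Thsd7a was the exception: this podocyte membrane protein, known as an autoantigen of membranous nephropathy in humans (chr6:12311610-12749410 on GRCm38), had 1176, 1523 and 1497 CPM in NTN libraries, against 7198, 5719 and 5998 CPM in untreated libraries. Its log2 fold change was -2.17 ± 0.17 (edgeR adjusted p = 8.93e-07), or -1.22 in length-rescaled counts, and the groups were far apart. Abca1, which exports cholesterol from cells, had 19.3, 14 and 15.7 CPM in NTN libraries, against 79.95, 75.7 and 74.4 CPM in untreated libraries, -2.23 ± 0.21 on the log2 scale. Ccdc107 had 16.7, 23.3 and 18.2 CPM in NTN libraries, against 148, 90.6 and 121 CPM in untreated libraries. In both genes the groups were far apart. Hist1h2be, a replication-dependent histone gene, had 12.6, 11.9 and 12.7 CPM in NTN libraries, against 63.2, 45.5 and 45.9 CPM in untreated libraries. Mcm10, a DNA replication factor, had 8.24, 13.1 and 21.8 CPM in NTN libraries, against 220.3, 31.7 and 46.5 CPM in untreated libraries, with untreated replicate 1 far above the rest. Its log2 fold change of -2.79 was -1.48 without that library, and its call was lost without NTN replicate 1 (-2.49) or 2 (-2.75). Itgad, Adam30, Ppm1n, Hist1h4c, Vil1, Rbm44 and Large2 had log2 fold changes of -2.62 to -1.96, at 35.2 CPM (Vil1, untreated replicate 1) or less in every library. The call of Vil1 was lost without NTN replicate 2 (-2.15) or untreated replicate 1 (-1.69), and Large2 was at -2.59 without NTN replicate 3.

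Counted in CPM rather than in fold, other genes lead. Podxl, the sialomucin of the podocyte surface, had 13667, 16094 and 13051 CPM in NTN libraries, against 26322, 21538 and 20669 CPM in untreated libraries (log2 fold change -0.68 ± 0.18, adjusted p = 0.0105 by edgeR, and -0.38, not called, with the covariate), the largest loss of any described gene. Mitochondrially encoded mt-Co1 had 14770.4, 16099.9 and 11695 CPM in NTN libraries, against 22532, 20052 and 20364 CPM in untreated libraries, and its call (-0.56 ± 0.18, adjusted p = 0.0286 by edgeR) was lost without NTN replicate 3, untreated replicate 1 or untreated replicate 3. Tjp1, the ZO-1 scaffold of tight junctions and slit diaphragms, had 1334, 1497 and 1631 CPM in NTN libraries, against 3836, 3158 and 3130 CPM in untreated libraries. For all 3 genes, every NTN library was below every untreated library. The largest gain was in Lars2, the mitochondrial leucyl-tRNA synthetase gene, with 29386, 35905 and 28109 CPM in NTN libraries, against 24322, 16516 and 13027 CPM in untreated libraries. Of its 9 annotated transcripts, a nonsense-mediated decay form and a retained-intron form together held nearly all of these counts, while the protein-coding transcripts held 0.051%, 0.145% and 0.121% of them in NTN libraries and 0.061%, 0.031% and 0.075% in untreated libraries. Lars2 is therefore not read here as a level of the enzyme's message, and its call was lost without NTN replicate 2, untreated replicate 2 or untreated replicate 3 (log2 fold change 0.64, 0.71 and 0.61). The next gains were mt-Co2, Ccn2, Actb, Sparc, Tpm1, Cald1 and Actn4, of which Sparc, a matricellular glycoprotein, had 3621, 3470.4 and 3164 CPM in NTN libraries, against 2020.03, 2212 and 2027 CPM in untreated libraries, and Cald1, the actin- and myosin-binding protein caldesmon, 1255, 1378 and 1285 CPM in NTN libraries, against 763, 533 and 567 CPM in untreated libraries. Both genes had separate groups, and each kept its call without each of the 6 libraries.

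On the TPM scale, which corrects counts for transcript length, the most abundant described genes of untreated podocytes were 10 mitochondrially encoded genes, Lars2 and Podxl, with mt-Nd4l first. The calls among these 12 were divided: mt-Nd4l, mt-Co1, mt-Nd4, mt-Atp8, mt-Nd2, mt-Co3 and Podxl were lower in NTN, mt-Co2 and Lars2 were higher, and mt-Cytb, mt-Nd1 and mt-Atp6 did not pass the test. The call of mt-Nd2 was lost without NTN replicate 3 or untreated replicate 1, that of mt-Nd4 without the same libraries, and that of mt-Co3 without NTN replicate 3, untreated replicate 2 or untreated replicate 3.

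In the sections that follow, 45 gene lists are described by how many of their described members were higher or lower, and by the median log2 fold change of the list, to be read beside 14.5%, 19.9% and -0.13 over all described genes. By limma on log2(TPM + 1), 717 of the 9323 described genes were higher and 2926 lower, with a median of -0.35. These values are the background for the limma counts of lists. By that fit, 13 of the 24 lists with more members higher than lower no longer had more higher. Values of single genes are CPM in NTN replicates 1, 2 and 3 and then in untreated replicates 1, 2 and 3, fold changes are log2 values of NTN over untreated ± SE, and adjusted p-values are those of edgeR.

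**Figure D2:**
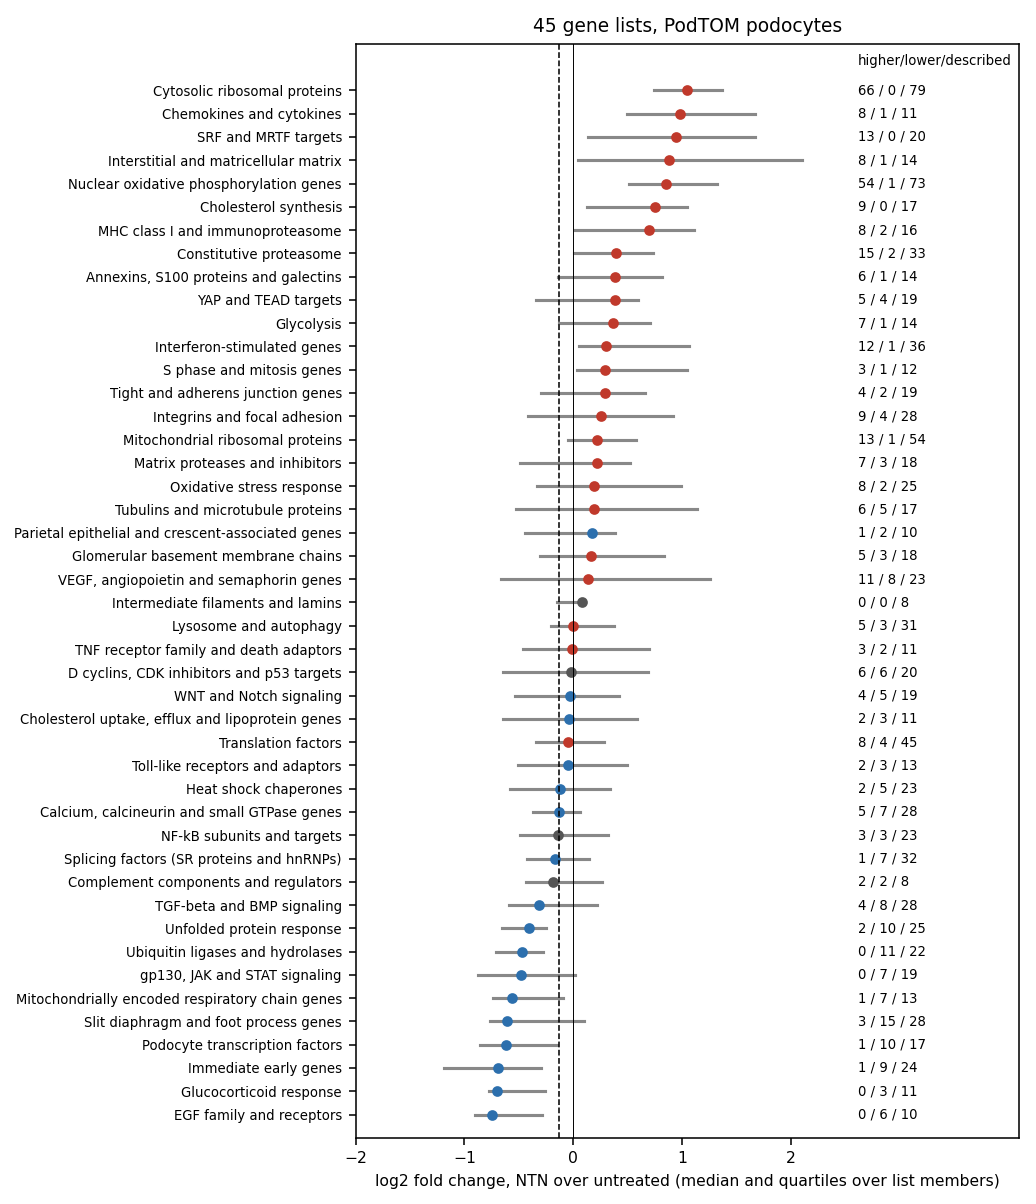
Each row is a gene list, with the median (point) and quartiles (bar) of the log2 fold change, NTN over untreated, over its described members, and the counts of members higher, lower and described at the right; points are red where more members were higher, blue where more were lower and gray where the counts are equal. The dashed line is the median over all described genes (-0.13), and the lists run from cytosolic ribosomal proteins (1.05) at the top to the EGF family (-0.74) at the bottom.

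Most genes of the cytosolic ribosome rose. Of 84 listed ribosomal protein genes, 79 were described, 66 were higher, 0 were lower and the median was 1.05. Only 4 of the 79 had reached 10 CPM in NTN alone. Rpl10a, of the large subunit, had 112, 101 and 116 CPM in NTN libraries, against 28, 40.2 and 38 CPM in untreated libraries, and Rpl17 had 57, 52.3 and 77.7 CPM in NTN libraries, against 17.8, 15.5 and 19.3 CPM in untreated libraries. Neither gene had overlapping groups. Rpl3, named after its values were seen, was the only described member below 0, at -0.19, and did not pass the test. The summed level of the list was 5544, 5523 and 6351 CPM in NTN libraries, against 2659, 3152 and 2970 CPM in untreated libraries. Leaving out 1 library gave 62 to 66 members higher, and the covariate of receptor signal gave 64. Ribosomal protein genes have many processed pseudogenes, so how reads were split among near-identical copies is uncertain for single members.

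Few translation factors were called. Of 45 described factors, 8 were higher and 4 lower, with a median of -0.04. Eef1b2, an elongation factor subunit, had 36.6, 40.9 and 44.3 CPM in NTN libraries, against 13.7, 17 and 19.4 CPM in untreated libraries (1.28 ± 0.18), and Eif3k, a subunit of initiation factor eIF3, rose by 1.22 ± 0.19. Eif4a2, an RNA helicase of cap-dependent initiation, moved the other way, with 417, 418 and 572 CPM in NTN libraries, against 1017, 1121 and 1136 CPM in untreated libraries (-1.22 ± 0.17, adjusted p = 1.29e-04, and -2.28 in length-rescaled counts), and Eif4b, which stimulates that helicase, fell by 0.703. The 54 described proteins of the mitochondrial ribosome moved less than the cytosolic ones, with 13 higher, 1 lower and a median of 0.22. Of the 54 genes, 9 had reached 10 CPM in NTN only and 2 in untreated only. Mrps21 (1.88 ± 0.26), Mrpl42 (1.03 ± 0.16), Mrps33 (0.96 ± 0.23) and Mrpl48 (0.88 ± 0.196) were the 4 clearest rises of this list. The 13 calls became 5 to 10 when 1 library was left out, with 5 without untreated replicate 2, 6 without NTN replicate 2 or untreated replicate 3, 7 without NTN replicate 1, and 4 with the covariate.

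The respiratory chain split by genome. Of 73 described oxidative phosphorylation genes encoded in the nucleus, 54 were higher and 1 lower, with a median of 0.85. Of the 73, 14 had reached 10 CPM in NTN only. Of the 13 protein-coding genes of mitochondrial DNA, which supply core subunits of the same complexes, 1 was higher and 7 were lower, with a median of -0.56. Ndufa1, a complex I subunit, had 46.9, 38.4 and 34.7 CPM in NTN libraries, against 11.3, 8.42 and 9.11 CPM in untreated libraries (2.06 ± 0.203, adjusted p = 6.17e-06). Cox7c and Cox6a1, of complex IV, rose by 1.41 ± 0.17 and 1.37 ± 0.17. The nuclear gene that fell, named after its values were seen, was Ndufb2 (-0.51). On the mitochondrial side, mt-Nd4l, a complex I subunit, had 970.3, 1136 and 736 CPM in NTN libraries, against 4511, 2551 and 2531 CPM in untreated libraries (-1.75 ± 0.25, adjusted p = 1.85e-04), with untreated replicate 1 far above the other libraries. For mt-Nd6 the values were 365, 341 and 225 CPM in NTN libraries, against 898, 583 and 619 CPM in untreated libraries, and for mt-Atp8 353, 353 and 252 CPM in NTN libraries, against 978, 571 and 571 CPM in untreated libraries. The mitochondrial gene that rose was mt-Co2, with 4358, 4614 and 3390.4 CPM in NTN libraries, against 2041, 2146 and 2353 CPM in untreated libraries (0.92 ± 0.17, adjusted p = 0.00139), whose groups did not overlap. The nuclear list summed to 3396, 3379 and 3603 CPM in NTN libraries and to 1968, 2070 and 2040 CPM in untreated libraries, and the mitochondrial list to 45620, 48110 and 33960 CPM in NTN libraries and to 70340, 53140 and 53610 CPM in untreated libraries. The rise of the nuclear genes was called for 41 to 48 members without any 1 library and for 46 with the covariate, while the fall of the mitochondrial genes was called for 3 without NTN replicate 3, 4 without untreated replicate 1 and 2 with the covariate.

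Ribosomal and oxidative phosphorylation genes have short transcripts, and genes with short transcripts were called higher more often than others. Described genes were put into 5 equal groups by transcript length. In the group with the shortest transcripts (median 1387 bases, 1865 genes), 30.7% were higher and 7.45% lower, with a median log2 fold change of 0.29. In the group with the longest (median 6243 bases), 10% were higher and 36.4% lower, with a median of -0.33. With the ribosomal and oxidative phosphorylation lists taken out, 1700 short genes remained (median 1437 bases), of which 26.4% were higher and 8.12% lower, with a median of 0.23. Beside that background, which is longer than the lists, 83.5% of the ribosomal list (median length 782 bases) and 74.0% of the nuclear oxidative phosphorylation list (838 bases) were higher. The mitochondrially encoded genes, as short (784 bases), were 7.69% higher and 53.8% lower. Their median GC content was 37.1%, against 51.6% for the ribosomal and 50.9% for the nuclear oxidative phosphorylation list. The share of genes lower in NTN was 29.5% at the lowest GC content and 10.8% at the highest, in groups of the same kind. In length-rescaled counts, the median of the shortest group was 0.27. Those counts set each gene to its mean effective length over the libraries, so they cannot remove a trend with length between genes. Length, GC content and disease were not separated further, and their part in single results was not tested.

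**Figure D3:**
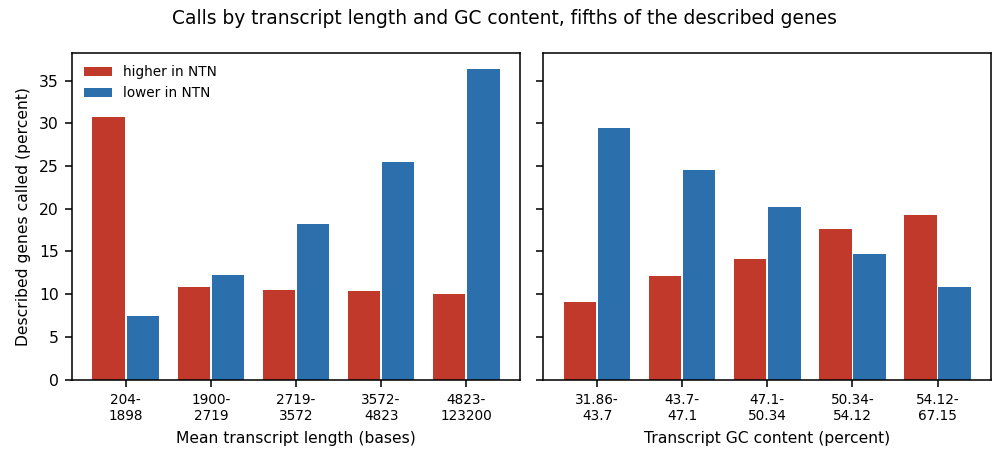
Bars give the percent of described genes higher (red) and lower (blue) in NTN, in 5 equal groups by mean transcript length in bases (left) and by transcript GC content in percent (right). The share of higher genes is 30.7% in the shortest group and close to 10% in the other 4, and the share of lower genes climbs to 36.4% in the longest.

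Targets of serum response factor (SRF) and its actin-sensing partners of the MRTF family were higher or not called. Of 26 listed genes, 20 were described, 13 were higher and 0 lower, with a median of 0.94. Among the 20, 3 had reached 10 CPM in NTN only, Myl9 being one of them. Besides Tagln, the smooth muscle protein transgelin (chr9:45929619-45936058 on GRCm38, log2 fold change 3.96, and 3.37 in length-rescaled counts), the rise was clearest in Cnn2, Flna and Myl9. Cnn2, calponin 2, had 126, 122 and 117 CPM in NTN libraries, against 25.3, 39 and 31 CPM in untreated libraries (1.94 ± 0.18, adjusted p = 4.07e-06). Flna, filamin A, which crosslinks actin filaments, had 661, 682 and 624 CPM in NTN libraries, against 223, 201 and 197 CPM in untreated libraries (1.66 ± 0.17, adjusted p = 7.26e-06). Myl9, a regulatory myosin light chain of contractile cells, had 31.3, 27.3 and 15.5 CPM in NTN libraries, against 4.09, 3.34 and 5.47 CPM in untreated libraries (2.52 ± 0.32, adjusted p = 6.43e-05). In none of the 4 genes did the groups overlap. Tpm1, a tropomyosin, had 1879, 2115 and 2269 CPM in NTN libraries, against 1142, 1489.98 and 1322 CPM in untreated libraries (0.66 ± 0.18), and its call was lost without NTN replicate 2 or untreated replicate 1. Actb had 3154, 3729 and 3781 CPM in NTN libraries, against 1789.99, 2614 and 2126 CPM in untreated libraries (0.71 ± 0.197), and its call was lost without NTN replicate 2, untreated replicate 1 or untreated replicate 3. Srf itself stood at 0.07 and did not pass. Without 1 library, 9 (untreated replicate 3) to 13 members were higher, and with the covariate 14. Tagln and Acta2 of this list are also markers of mesangial and smooth muscle cells. The other 8 markers of those cells summed to 199, 187 and 124 CPM in NTN libraries, against 146, 88.7 and 101 CPM in untreated libraries, with overlapping groups. Of these 8, Itga8 (40.9, 51.2 and 13.8 CPM in NTN, 5.41, 2.54 and 6.35 CPM in untreated libraries) and Gata3 (9.18, 8.32 and 4.36 CPM in NTN, 2.47, 3.66 and 2.45 CPM in untreated libraries) were called higher, and 0 were lower. How much of the level of Tagln and Acta2 came from such cells was not tested.

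SRF binds an element called the CArG box, which reads the same on both strands. In the 250 bases before the annotated start, searched on both strands and counting a promoter once, CArG boxes were present in 33.3% of the 18 promoters found for the SRF list (6 genes), against 1.4% of 27025 mouse promoters, 1.03% of the promoters of higher genes and 1.03% of those of lower genes. Of the 6 genes, Cnn2 and Myl9 were higher, and Srf, Vcl, Fhl1 and Actg1 were not called, so the element was found in members that moved and members that did not. The stretches below run 5′ to 3′ from 220 to 46 bases before the start of the 2 genes that rose and hold a match, taken from RefSeq on GRCm38.p6, with the CArG box in capitals. That of Cnn2 is chr10:79988380-79988554, plus strand, and that of Myl9 is chr2:156775244-156775418, plus strand.
Cnn2: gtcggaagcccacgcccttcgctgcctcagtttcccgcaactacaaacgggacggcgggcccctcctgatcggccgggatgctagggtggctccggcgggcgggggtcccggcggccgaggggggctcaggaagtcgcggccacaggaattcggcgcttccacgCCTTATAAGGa
Myl9: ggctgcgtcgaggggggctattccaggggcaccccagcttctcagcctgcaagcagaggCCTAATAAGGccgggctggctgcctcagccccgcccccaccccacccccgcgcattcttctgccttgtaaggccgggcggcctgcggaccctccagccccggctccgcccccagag

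Other cytoskeletal and adhesion lists moved in part. The genes the study names for actin organization and contractility were higher for Actn1 (1.31 ± 0.18, adjusted p = 1.51e-04), Myl6 (1.24 ± 0.17) and Myl12b (1.15 ± 0.16). Actn4 (0.64 ± 0.197, adjusted p = 0.0261) lost its call without NTN replicate 2, untreated replicate 2 or untreated replicate 3 and stood at 0.34 in length-rescaled counts. Fnbp1 (0.51 ± 0.17, adjusted p = 0.0401) lost its call without NTN replicate 2 or 3 or untreated replicate 2 or 3 and was -0.25 in length-rescaled counts. Arhgap23 (0.46 ± 0.204, adjusted p = 0.105) and Synpo (0.26 ± 0.17, adjusted p = 0.277) did not pass, and their groups overlapped. Both passed with TMM over the described genes (0.59 and 0.40), and Arhgap23 also in length-rescaled counts (0.80), with the covariate (0.87) and without untreated replicate 1 (0.69). Of 28 described integrin and focal adhesion genes, 9 were higher and 4 lower, with a median of 0.26. Itga8, also a mesangial marker, was among the 9. Itgb3, the beta 3 integrin subunit, had 30.02, 22.8 and 21.5 CPM in NTN libraries, against 5.87, 5.3 and 5.78 CPM in untreated libraries (2.13 ± 0.28, adjusted p = 8.06e-05), and Lims2, an adaptor of the integrin-linked kinase complex, had 189.8, 195 and 178 CPM in NTN libraries, against 83.3, 75.3 and 72 CPM in untreated libraries (1.29 ± 0.17, adjusted p = 7.95e-05). Itgb8, whose integrin activates latent TGF-beta, went the other way with 176, 203 and 233 CPM in NTN libraries, against 439, 427 and 429.6 CPM in untreated libraries (-1.08 ± 0.15, adjusted p = 1.22e-04). Zyx, the focal adhesion protein zyxin and also an SRF target, rose by 1.19 ± 0.17. These 4 genes had no overlap between groups.

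Of 17 described tubulins and microtubule proteins, 6 were higher and 5 lower, with a median of 0.19. The members that rose were mostly tubulins: Tuba1a had 324, 326 and 398 CPM in NTN libraries, against 126, 101 and 104 CPM in untreated libraries (1.66 ± 0.17, adjusted p = 7.78e-06), and Tubg1, Tuba1b and Tubb2a rose by 2.07 ± 0.28, 1.17 ± 0.18 and 1.14 ± 0.196. The 5 that fell, named after their values were seen, were the microtubule-associated genes Map1a, Map4 and Clip1 and the motor genes Kif5b and Dync1h1, from -0.52 for Dync1h1 to -0.74 for Clip1. They became 2 without NTN replicate 1, 3 without untreated replicate 1 or 3, and 0 with the covariate. In contrast, none of 8 described intermediate filament and lamin genes was called (median 0.08), and the 2 most abundant, Nes and Vim, had log2 fold changes of -0.11 and 0.07. Of 14 described annexin, S100 and galectin genes, 6 were higher and 1 lower (median 0.39), with S100a6, S100a10 (0.84 ± 0.17), Lgals9 (1.57 ± 0.32) and S100a16 (1.23 ± 0.28) as the clearest rises. Of the 14, 4 had reached 10 CPM in NTN only. Of 19 described tight and adherens junction genes, 4 were higher and 2 lower (median 0.29). F11r, the junctional adhesion molecule JAM-A, had 62.2, 72.9 and 104 CPM in NTN libraries, against 35.2, 32.3 and 25.6 CPM in untreated libraries (1.36 ± 0.205, adjusted p = 2.55e-04), Pard6b, a polarity adaptor, rose by 0.98 ± 0.19, and Dlg1, a polarity scaffold, fell by 0.66. Cdh5, the endothelial cadherin, had 37.1, 34.9 and 22.2 CPM in NTN libraries, against 3.55, 5.83 and 4.4 CPM in untreated libraries, and is one of the 7 endothelial markers that were higher.

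Matrix genes were more often higher than lower. Of 31 listed interstitial and matricellular genes, 14 were described, 8 were higher and 1 lower, with a median of 0.89. Among the 14, 3 had reached 10 CPM in NTN only and 1 in untreated only. Ccn2 (connective tissue growth factor) had 2068, 2187 and 1733 CPM in NTN libraries, against 419, 489.6 and 373 CPM in untreated libraries (2.22 ± 0.24, adjusted p = 1.46e-05), the third largest gain in CPM of all described genes. Tgfbi, a TGF-beta-induced matrix protein, had 309, 231 and 223 CPM in NTN libraries, against 55.6, 54.9 and 44.6 CPM in untreated libraries (2.297 ± 0.27, adjusted p = 5.39e-05), and Loxl2, a lysyl oxidase that crosslinks collagen, had 657, 689.9 and 647 CPM in NTN libraries, against 284, 337 and 336 CPM in untreated libraries (1.06 ± 0.16, adjusted p = 2.31e-04). Thbs1, thrombospondin 1, was the member that fell, with 84.8, 116 and 113 CPM in NTN libraries, against 519, 376 and 293 CPM in untreated libraries (-1.92 ± 0.19, adjusted p = 7.17e-06). In all 4 genes the groups were separate. Without 1 library, 6 to 8 members were higher, and with the covariate 6. The other higher members, named after their values were seen, were Col12a1, Tnc, Bgn, Lox and Sparc.

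Chains of the glomerular basement membrane went both ways. Of 18 described, 5 were higher and 3 lower, with a median of 0.17 that was 0.04 in length-rescaled counts. Of the 18, 4 had reached 10 CPM in NTN only and were described through that level. Col4a1 and Col4a2, the collagen IV chains of most basement membranes, moved together. Col4a1 had 42.1, 31.3 and 13.1 CPM in NTN libraries, against 4.79, 3.97 and 6.85 CPM in untreated libraries (2.47 ± 0.39), and Col4a2 had 44, 36.6 and 19.2 CPM in NTN libraries, against 7.49, 7.31 and 10.4 CPM in untreated libraries (1.98 ± 0.29). Col4a4, a chain of the mature podocyte-made network, was lower, with 1296, 1417 and 1176 CPM in NTN libraries, against 1947, 2036 and 2004 CPM in untreated libraries (-0.62 ± 0.15, adjusted p = 0.00576). Hspg2, the heparan sulfate proteoglycan perlecan, had 29.1, 29.9 and 19.4 CPM in NTN libraries, against 4.17, 8.32 and 12.8 CPM in untreated libraries. The NTN values of Col4a1 and Col4a2 followed the order of the endothelial marker sum, highest in NTN replicate 1 and lowest in replicate 3, and the part of endothelial RNA in them was not tested. With the covariate 1 member was higher and 0 lower, and of the 5 higher and 3 lower members 3 and 1 were called without NTN replicate 1, with 1 lower also without untreated replicate 2 or 3. Of 18 described matrix proteases and inhibitors, 7 were higher and 3 lower (median 0.22, and 3 higher without NTN replicate 2 or untreated replicate 3). Among these 18, 3 had reached 10 CPM in NTN only and 1 in untreated only. Plat, tissue plasminogen activator, had 969, 1104 and 957 CPM in NTN libraries, against 2687, 1886 and 1864 CPM in untreated libraries (-1.09 ± 0.17, adjusted p = 4.02e-04). The metalloproteases Adamts5 and Adam19 rose by 1.89 ± 0.34 and 2.04 ± 0.38.

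**Figure D4:**
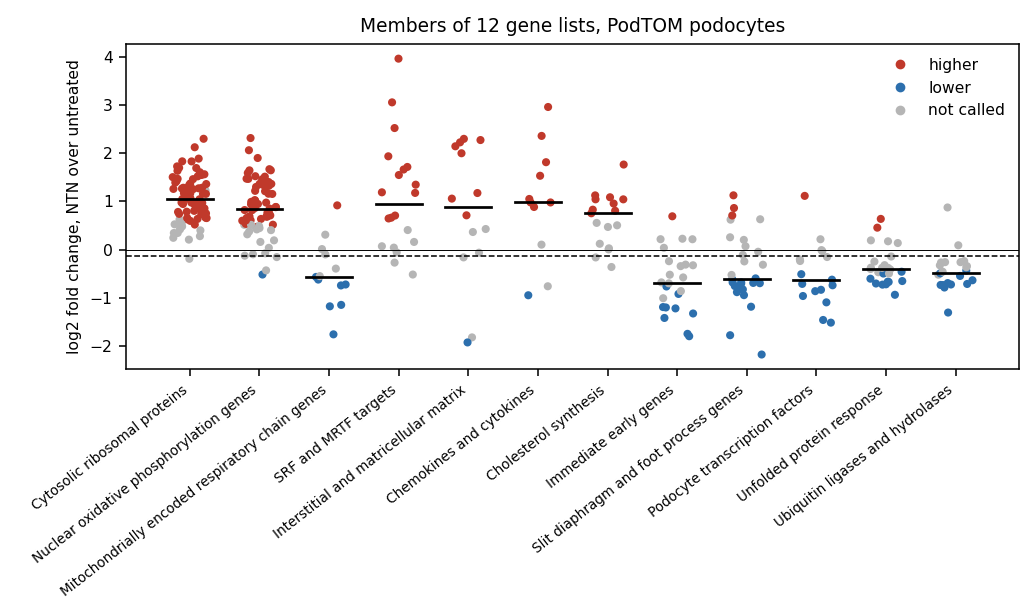
Each point is a described member of 1 of 12 gene lists, with its log2 fold change, NTN over untreated, on the vertical axis; red, blue and gray mark members higher, lower and not called, the black bars are list medians and the dashed line is the median over all described genes. Nearly all ribosomal and nuclear oxidative phosphorylation genes lie above 0, and most mitochondrially encoded genes, immediate early genes and podocyte transcription factors lie below it.

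Genes of the slit diaphragm and foot process were more often lower than higher. Of 28 described, 15 were lower and 3 higher, with a median of -0.60, and the list summed to 34650, 39260 and 34910 CPM in NTN libraries, against 68440, 57460 and 55460 CPM in untreated libraries. After Thsd7a, the clearest falls were in Mpp5, a polarity scaffold of the Crumbs complex with 539.8, 627 and 747 CPM in NTN libraries, against 2283, 2099 and 2158 CPM in untreated libraries (-1.77 ± 0.16, adjusted p = 2.98e-06), in Tjp1 (-1.18 ± 0.16) and in Ptpro. The last, a receptor tyrosine phosphatase of foot processes, had 926, 1025 and 880.1 CPM in NTN libraries, against 1939, 1764 and 1738 CPM in untreated libraries (-0.94 ± 0.14, adjusted p = 2.26e-04). Nphs1, the gene of nephrin, did not pass (-0.31). The 3 members that rose, named after their values were seen, were Trpc6, a cation channel (1.13), Pla2r1, a receptor known as an antigen of membranous nephropathy in humans (0.86), and Slc9a3r2, an adaptor that binds podocalyxin (0.71). They became 1 without NTN replicate 1, untreated replicate 1 or untreated replicate 3, and 1 with the covariate. In bulk libraries, fewer cells of a type and less RNA per cell cannot be told apart. The fall was called for 12 to 15 members without any 1 library and for 9 with the covariate.

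Transcription factors of the podocyte were lower for 10 of 17, with 1 higher and a median of -0.62. Klf6 had 538, 692 and 1018 CPM in NTN libraries, against 2433, 2229 and 1748 CPM in untreated libraries (-1.51 ± 0.23, adjusted p = 2.53e-04), and Dach1 had 263, 299 and 301 CPM in NTN libraries, against 602, 541 and 538 CPM in untreated libraries (-0.96 ± 0.14, adjusted p = 1.96e-04). Tcf21, a regulator of podocyte development, was the member that rose, with 208, 211 and 213 CPM in NTN libraries, against 102, 92.9 and 97.3 CPM in untreated libraries (1.12 ± 0.16, adjusted p = 1.65e-04). No NTN library of these 3 genes lay within the range of the untreated libraries. The 10 falls became 7 without NTN replicate 1 or untreated replicate 1, and 3 with the covariate. Of 10 described genes associated with parietal epithelium and crescents, 1 was higher and 2 were lower (median 0.18, but -0.10 in length-rescaled counts). Akap12, a kinase anchoring protein, rose by 1.18 ± 0.18, and the adhesion molecules Alcam and Ncam1 fell (log2 fold changes -0.73 and -0.78), with the call of Ncam1 lost without untreated replicate 1 (-0.53).

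Chemokines and cytokines were few, and most of those described were higher. Of 35 listed, 11 were described, 8 were higher and 1 was lower, with a median of 0.98, but 7 of the 11 had reached 10 CPM in NTN only and were described through that level. Cxcl1, which attracts neutrophils, had 30.3, 33.4 and 38.8 CPM in NTN libraries, against 2.7, 5.14 and 5.22 CPM in untreated libraries (2.96 ± 0.33, adjusted p = 1.80e-05). Cxcl10, which attracts T cells through CXCR3, had 31.2, 37.4 and 43 CPM in NTN libraries, against 10.7, 4.71 and 6.47 CPM in untreated libraries (2.36 ± 0.27, adjusted p = 2.79e-05). Cxcl12, already expressed without disease, had 218, 229.8 and 187 CPM in NTN libraries, against 78.6, 129 and 114 CPM in untreated libraries (0.98 ± 0.18, adjusted p = 9.71e-04). In these 3 genes every NTN library exceeded every untreated library. Csf1, the growth factor of macrophages, had 31, 25.8 and 13.1 CPM in NTN libraries, against 6.57, 9.27 and 8.3 CPM in untreated libraries (1.53 ± 0.29, adjusted p = 0.00158), but did not pass in length-rescaled counts (0.91) or with the covariate (1.29). Cxcl15 had 13.8, 9.36 and 10.3 CPM in NTN libraries, against 1.39, 3.02 and 5.03 CPM in untreated libraries (1.81 ± 0.43, adjusted p = 0.00633), and did not pass with the covariate (0.86). Ccl25 was the member that fell (-0.94), named after its values were seen. The rise was called for 5 (without untreated replicate 2) to 8 members without any 1 library, and for 4 with the covariate.

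Genes of antigen presentation by MHC class I were more often higher than lower. Of 16 described genes, 8 were higher and 2 lower, with a median of 0.70. B2m, the light chain of all class I molecules (chr2:122147686-122153083), had 556, 393 and 291 CPM in NTN libraries, against 65.5, 96.7 and 94.2 CPM in untreated libraries (2.27 ± 0.22, adjusted p = 6.65e-06). H2-K1, a classical heavy chain, had 408, 360.4 and 309 CPM in NTN libraries, against 69.99, 75 and 83.5 CPM in untreated libraries (2.24 ± 0.16, adjusted p = 4.83e-07), H2-D1 rose by 1.18 ± 0.18, and Tapbp, which loads peptide onto class I, had 119, 121 and 100.4 CPM in NTN libraries, against 56.7, 50.9 and 52.7 CPM in untreated libraries (1.09 ± 0.14, adjusted p = 9.08e-05). In each of these genes the groups were separate, with NTN replicate 1 highest for B2m, H2-K1 and H2-D1. The NTN values of B2m and H2-K1 followed the order of the endothelial marker sum (272, 248 and 139 CPM in NTN replicates 1 to 3). The part of endothelial RNA in them was not tested. The 2 that fell, named after their values were seen, were H2-Q6 (-0.76, with overlapping groups) and H2-Q7 (-0.69). The H2 genes are near-identical to one another, so the split of reads among them is uncertain. The list summed to 3851, 3459 and 2754 CPM in NTN libraries, against 3412, 3614 and 3447 CPM in untreated libraries, with overlapping groups. Of the 16 genes, 3 had reached 10 CPM in NTN only. With the covariate, 4 were higher and 0 lower.

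Interferon-stimulated genes rose in part. Of 53 listed, 36 were described, 12 were higher and 1 lower, with a median of 0.30, and 9 of the 36 had reached 10 CPM in NTN only. Trim25, a ubiquitin ligase of RNA sensing, had 106, 126 and 129.7 CPM in NTN libraries, against 51.8, 54.2 and 54.3 CPM in untreated libraries (1.17 ± 0.14, adjusted p = 4.62e-05), and Gbp6, a guanylate-binding protein, had 39.1, 28.1 and 25.9 CPM in NTN libraries, against 5.02, 10.01 and 8.42 CPM in untreated libraries (1.98 ± 0.297, adjusted p = 2.53e-04). Ifitm3, which blocks virus entry, had 42.7, 36.4 and 16.4 CPM in NTN libraries, against 1.85, 3.18 and 3.39 CPM in untreated libraries, and Ifi27 rose by 1.63 ± 0.25. The groups of these 4 genes did not overlap. Ifitm3 followed the order of the endothelial marker sum over the NTN libraries, and the part of endothelial RNA in it was not tested. Of the transducers of the interferon signal, none was called higher: Irf1 stood at 0.04 and Irf9 at -0.28, and Stat2 was the member that fell (-0.61), all named after their values were seen. With the covariate, 6 were higher and 1 lower.

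Promoters of these genes were searched in the same way for the NF-kB site, bound by dimers of that factor, and for an interferon-response-type element, GAAANNGAAA, on both strands. Over all 27025 promoters, 7.01% held the first and 3.04% the second. Of higher genes, 9.24% and 3.08% held them, and of lower genes 8.80% and 2.27%, beside 8.69% and 2.48% of all described promoters. Within lists, the NF-kB site was present in 7 of 13 MHC class I promoters (53.8%), 4 of 9 chemokine promoters (44.4%) and 8 of 18 promoters of the NF-kB list (44.4%), and the interferon-type element in 10 of 29 promoters of interferon-stimulated genes (34.5%) and 3 of 13 of MHC class I (23.1%). The NF-kB site was also in 6 of 18 promoters of the SRF list (33.3%), 5 of 19 of immediate early genes (26.3%), 5 of 29 of interferon-stimulated genes (17.2%) and 1 of 13 of YAP targets (7.69%). Among MHC class I members and chemokines with the site, H2-Q6 and H2-Q7 were lower, and H2-T22 and Lif were not called. Printed are 4 genes that rose and hold a match, 220 to 46 bases before the start, 5′ to 3′ on the strand of the gene, from RefSeq on GRCm38.p6. They are shown because a list with a high share of matches holds them. Capitals mark NF-kB sites and, in B2m and Cxcl10, the interferon-type element, which comes first in each and overlaps no NF-kB site. The regions are chr2:122147467-122147641 (plus strand) for B2m, chr17:34000393-34000567 (minus strand) for H2-K1, chr5:90891025-90891199 (plus strand) for Cxcl1 and chr5:92348935-92349109 (minus strand) for Cxcl10.
B2m: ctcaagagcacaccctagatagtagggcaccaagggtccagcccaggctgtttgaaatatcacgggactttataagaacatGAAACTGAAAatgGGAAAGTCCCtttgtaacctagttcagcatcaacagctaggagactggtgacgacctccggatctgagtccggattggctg
H2-K1: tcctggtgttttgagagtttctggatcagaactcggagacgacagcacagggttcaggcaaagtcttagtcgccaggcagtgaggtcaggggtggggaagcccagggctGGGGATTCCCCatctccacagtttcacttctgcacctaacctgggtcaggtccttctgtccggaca
Cxcl1: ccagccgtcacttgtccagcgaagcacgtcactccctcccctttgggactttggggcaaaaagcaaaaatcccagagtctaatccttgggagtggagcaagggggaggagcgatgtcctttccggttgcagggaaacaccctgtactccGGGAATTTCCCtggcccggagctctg
Cxcl10: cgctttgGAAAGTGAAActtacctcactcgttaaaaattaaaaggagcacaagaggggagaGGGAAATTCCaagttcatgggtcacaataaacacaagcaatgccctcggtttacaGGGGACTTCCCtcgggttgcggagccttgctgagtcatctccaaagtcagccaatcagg

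NF-kB genes themselves were divided. Of 23 described subunits and targets, 3 were higher and 3 lower, with a median of -0.14. Nfkbib, an inhibitor of NF-kB, had 19.6, 33.1 and 30.4 CPM in NTN libraries, against 13.1, 8.48 and 14.2 CPM in untreated libraries (1.22 ± 0.26, adjusted p = 0.00315), and Tnfaip2 rose by 0.68 ± 0.15 but was not called in length-rescaled counts (0.29). Tnfaip3, the A20 protein that ends NF-kB signaling, had 134, 172 and 313 CPM in NTN libraries, against 483, 558 and 431 CPM in untreated libraries (-1.25 ± 0.28, adjusted p = 0.00623), and the groups did not overlap. Rel (-0.65 ± 0.19) lost its call without NTN replicate 1, NTN replicate 2 or untreated replicate 2. Of 13 described toll-like receptors and adaptors, 2 were higher and 3 lower, with a median of -0.05. Of the 13, 4 had reached 10 CPM in NTN only, among them both higher members, Tlr1 and Tlr3. Tlr7, a receptor of single-stranded RNA, had 54.4, 59.2 and 54.5 CPM in NTN libraries, against 227, 184 and 174 CPM in untreated libraries (-1.8 ± 0.15, adjusted p = 1.94e-06). Tlr1, a partner of Tlr2, had 22.9, 13.4 and 11.4 CPM in NTN libraries, against 4.02, 2.65 and 3.83 CPM in untreated libraries, and Tlr3, a receptor of double-stranded RNA, rose by 1.21 ± 0.29. Neither passed with the covariate (0.86 and 1.08). Tollip, an inhibitor of the pathway, fell by 0.73, and Myd88 itself stood at 0.59, not called.

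Of 11 described TNF receptors and death adaptors, 3 were higher and 2 lower (median -0.01). Tnfrsf1a, the main TNF receptor, had 19.1, 14.6 and 16.7 CPM in NTN libraries, against 8.65, 5.51 and 7.04 CPM in untreated libraries (1.25 ± 0.25, adjusted p = 0.0024), and Tnfrsf21 (death receptor 6) had 124, 168 and 130.4 CPM in NTN libraries, against 314, 238 and 224 CPM in untreated libraries (-0.88 ± 0.18, adjusted p = 0.00211). Tnfrsf12a, the receptor of TWEAK, had 124, 177 and 288 CPM in NTN libraries, against 84.7, 85.8 and 97.6 CPM in untreated libraries, rising by 1.14 ± 0.29, with its call lost without untreated replicate 1 or 2, and Cflar, an inhibitor of caspase 8, was -0.69 and not called in length-rescaled counts (-0.44). The gp130, JAK and STAT genes were lower or not called: of 19, 0 were higher and 7 lower, with a median of -0.48. Socs3, the feedback inhibitor of gp130, had 69.2, 79.7 and 92.8 CPM in NTN libraries, against 339, 197 and 206 CPM in untreated libraries (-1.62 ± 0.21, adjusted p = 6.43e-05), and Il6ra, a receptor chain for IL-6, had 245, 299.6 and 270.5 CPM in NTN libraries, against 548, 535 and 535 CPM in untreated libraries (-0.99 ± 0.15, adjusted p = 2.33e-04). Bcl6 and Jak1 fell (log2 fold changes -0.94 and -0.75). With the covariate, 2 were lower. Of 8 described complement genes, 2 were higher and 2 lower (median -0.18): Clu, the complement regulator clusterin, had 39.99, 29 and 29.8 CPM in NTN libraries, against 2.09, 2.28 and 9.43 CPM in untreated libraries (2.83 ± 0.49, adjusted p = 0.00158, and 3.91 without untreated replicate 3), Cd55, a surface inhibitor of complement, had 312, 326 and 336 CPM in NTN libraries, against 499.8, 545 and 505 CPM in untreated libraries (-0.67 ± 0.15, adjusted p = 0.00374), and C1s1 (1.32 ± 0.42) and C2 (-0.801 ± 0.26) lost their calls without 1 of several libraries, C1s1 without NTN replicate 1 or 2 and C2 without NTN replicate 1 or 2 or untreated replicate 2 or 3.

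Immediate early genes, transcribed within minutes of a stimulus, were more often lower than higher in NTN. Of 24 described, 9 were lower and 1 higher, with a median of -0.69, and their summed level was 6668, 7762 and 12190 CPM in NTN libraries, against 20420, 16990 and 14880 CPM in untreated libraries. Fos, a subunit of AP-1, had 626, 678 and 1016 CPM in NTN libraries, against 2590.2, 2709 and 2471 CPM in untreated libraries (-1.74 ± 0.18, adjusted p = 1.14e-05). Jun, its partner, had 674, 827 and 1071 CPM in NTN libraries, against 2475, 1732 and 1658 CPM in untreated libraries (-1.19 ± 0.199, adjusted p = 6.07e-04). Egr1, a zinc finger factor, had 1419, 1685 and 2934 CPM in NTN libraries, against 5102, 4746 and 4185 CPM in untreated libraries (-1.22 ± 0.22, adjusted p = 0.00121). Atf3 and Btg2 fell (log2 fold changes -1.41 and -1.197). NTN replicate 3 was the highest NTN library for all 5 genes, yet below every untreated library. Without NTN replicate 3 the number lower was 15, and it was 7 to 11 without any other library and 4 with the covariate. The member that rose, named after its values were seen, was Ier5 (0.69). These genes respond to the handling of cells between organ and lysis, and whether handling differed between groups was not recorded in the sources used here. The cyclic AMP response element TGACGTCA was present in 2 of 19 promoters of this list and a CArG box in 1 of 19, against 1.62% and 1.4% of all promoters. Of 11 described glucocorticoid-responsive genes, 0 were higher and 3 lower (median -0.70): Nr3c1, the glucocorticoid receptor, had 53.7, 56.5 and 59.4 CPM in NTN libraries, against 102, 100.1 and 90.7 CPM in untreated libraries (-0.79 ± 0.15, adjusted p = 0.00126), Klf9 fell by 1.33 and Errfi1, a feedback inhibitor of EGF receptors, fell by 0.75.

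**Figure D5:**
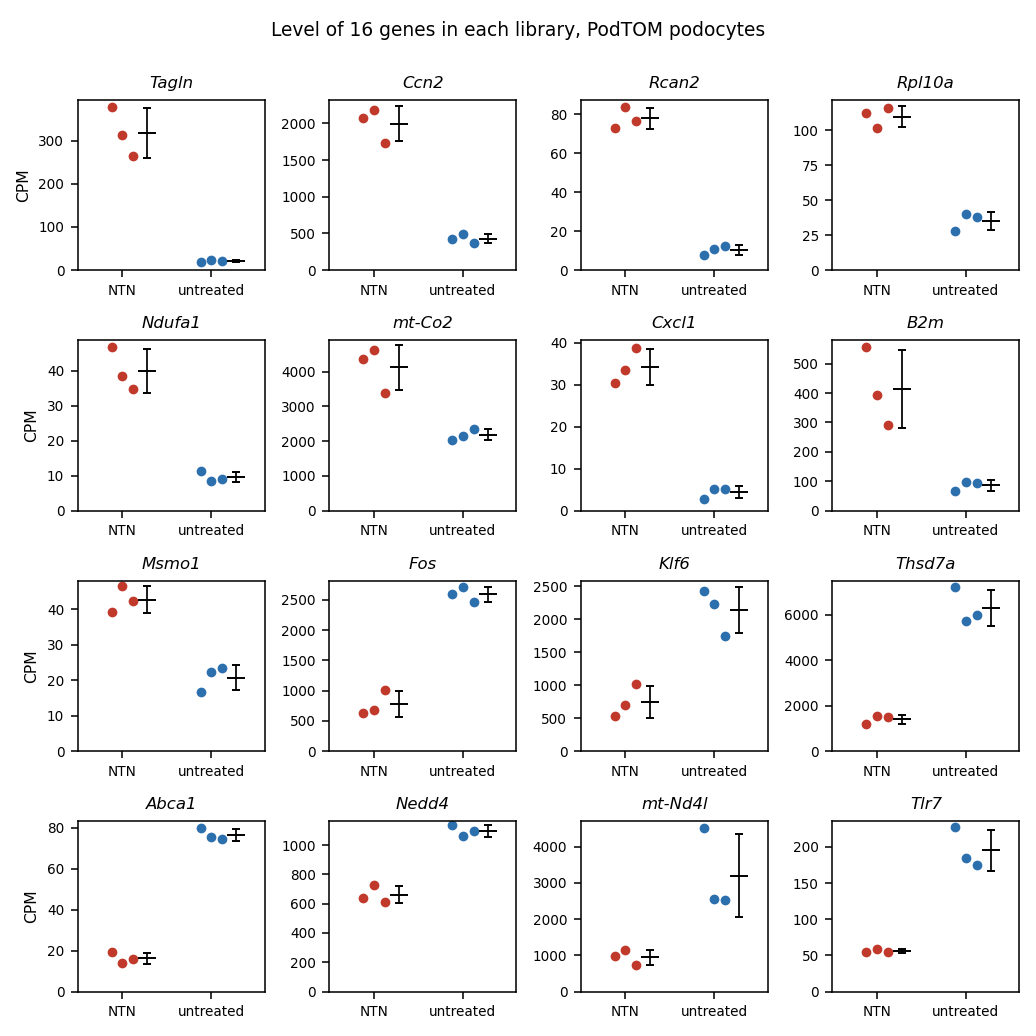
Each panel shows the CPM of a gene in the 3 NTN libraries (red, left) and the 3 untreated libraries (blue, right), with the mean and SD of each group as a bar with caps, on axes that start at 0. In all 16 genes the groups are separate, as for Tagln, at 264 CPM or more in NTN and 23.1 CPM or less in untreated libraries.

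In the TGF-beta and BMP list, 4 of 28 described genes were higher and 8 lower, with a median of -0.31. The level of 10 CPM was reached in NTN only by 4 of the 28, among them Tgfb2. The higher ones included ligands: Tgfb2 had 37.4, 44.1 and 45 CPM in NTN libraries, against 9.35, 9.69 and 8.49 CPM in untreated libraries (2.2 ± 0.24, adjusted p = 1.74e-05), and Tgfb3 rose by 3.15 ± 0.41. The lower ones included receptors and inhibitors: Bmpr2, the type 2 BMP receptor, had 592, 698 and 749 CPM in NTN libraries, against 1218, 1331 and 1236 CPM in untreated libraries (-0.89 ± 0.16, adjusted p = 0.00107), and Skil, a SMAD corepressor, had 104, 126 and 176 CPM in NTN libraries, against 327, 342 and 280.3 CPM in untreated libraries (-1.22 ± 0.18, adjusted p = 2.43e-04). None of these 4 genes had overlapping groups. With the covariate, 2 were higher and 3 lower. Of 10 described EGF family genes, 0 were higher and 6 lower, with a median of -0.74. Erbb4, a receptor of neuregulins, had 29.3, 23.8 and 20.4 CPM in NTN libraries, against 54.9, 60.9 and 49.8 CPM in untreated libraries (-1.17 ± 0.19, adjusted p = 4.10e-04), but was at -0.14 and not called in length-rescaled counts. The ligands Tgfa and Egf were at -0.98 and -0.74 (Egf at -1.50 in length-rescaled counts), and Lrig1, which restrains EGF receptors, at -0.899 (-0.50, not called, in length-rescaled counts). With the covariate, 1 was lower.

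Vascular and guidance genes went both ways. Of 23 described VEGF, angiopoietin and semaphorin genes, 11 were higher and 8 lower, with a median of 0.14 (-0.07 in length-rescaled counts, where 5 were higher and 7 lower, and 0 higher and 9 lower by limma on log2(TPM + 1)). Robo2, a receptor of SLIT ligands, had 423, 456 and 438 CPM in NTN libraries, against 1124, 1012 and 1026 CPM in untreated libraries (-1.26 ± 0.14, adjusted p = 1.20e-05). Sema5a, a guidance protein, had 1120.03, 1409 and 1301 CPM in NTN libraries, against 2629, 2249.7 and 2234 CPM in untreated libraries (-0.89 ± 0.15, adjusted p = 7.53e-04), and the secreted Sema3e fell by 0.804. Sema6a had 26.1, 13.6 and 18.5 CPM in NTN libraries, against 2.78, 4.24 and 3.65 CPM in untreated libraries and was higher (2.44 ± 0.42, or 1.20 in length-rescaled counts, and not called with the covariate). Of the 23 genes, 7 had reached 10 CPM in NTN only, and the endothelial receptors Kdr (1.57), Flt1 (1.56) and Tek (1.62), named after their values were seen, are among the 7 endothelial markers that rose. Their sum was 139 to 272 CPM in NTN libraries and 53.3 to 92.6 CPM in untreated libraries, and how much of the rise of these receptors came from endothelial RNA was not tested. With the covariate, 1 was higher and 5 lower, and the 11 rises were 6 without NTN replicate 2 and 7 without untreated replicate 1.

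Of 19 described WNT and Notch genes, 4 were higher and 5 lower, with a median of -0.03. The level of 10 CPM was reached in NTN only by 3 of these, among them Wnt5a, and in untreated only by 1. Wnt5a, a non-canonical WNT ligand, had 22.9, 19.4 and 15.9 CPM in NTN libraries, against 5.64, 4.4 and 4.21 CPM in untreated libraries (2.03 ± 0.33, adjusted p = 4.66e-04). Ryk, a WNT co-receptor, had 37, 34.2 and 41.2 CPM in NTN libraries, against 74.6, 76.1 and 74.4 CPM in untreated libraries (-1.003 ± 0.17, adjusted p = 5.79e-04), Lrp6, a co-receptor of canonical WNT, fell by 0.805, and Rbpj, the nuclear effector of Notch, fell by 0.83. Of 19 described YAP and TEAD targets, 5 were higher and 4 lower (median 0.38, and 0.14 in length-rescaled counts). Ccn2, Tgfb2 and Ankrd1 (1.76 ± 0.25) rose, and Ptpn14, a phosphatase that holds YAP in the cytoplasm, had 536, 688 and 675 CPM in NTN libraries, against 1329, 1129.7 and 1141 CPM in untreated libraries (-0.92 ± 0.17, adjusted p = 0.00109). The TEAD-binding letters GGAATG were present in 6 of 13 promoters of that list (46.2%), against 12.6% of all promoters, 11.4% of those of higher genes and 9.48% of those of lower genes. Of 28 described calcium, calcineurin and small GTPase genes, 5 were higher and 7 lower (median -0.13). Rcan2, an inhibitor of calcineurin, had 73.2, 83.8 and 76.8 CPM in NTN libraries, against 7.57, 10.6 and 12.4 CPM in untreated libraries (2.93 ± 0.23, adjusted p = 8.93e-07). Ppp3r1, the regulatory subunit of calcineurin, had 42.8, 40.9 and 56.7 CPM in NTN libraries, against 79, 98.6 and 97.7 CPM in untreated libraries (-0.97 ± 0.18, adjusted p = 0.00104), Itpr3, a calcium release channel, fell by 0.97 and Iqgap2 fell by 0.75.

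Genes of cholesterol synthesis were higher or not called. Of 17 described genes of cholesterol synthesis, 9 were higher and 0 lower, with a median of 0.76. Among the 17, 3 had reached 10 CPM in NTN only. Msmo1, a sterol oxidase, had 39.1, 46.6 and 42.5 CPM in NTN libraries, against 16.6, 22.2 and 23.3 CPM in untreated libraries (1.04 ± 0.18, adjusted p = 6.97e-04). Insig1, which holds the sterol sensor in the endoplasmic reticulum, had 29.3, 31.7 and 52.3 CPM in NTN libraries, against 16.1, 16.7 and 20.4 CPM in untreated libraries, and Cyp51, a sterol demethylase, rose by 0.83 ± 0.18 but was not called in length-rescaled counts (0.52). The groups did not overlap in these 3 genes. Among 11 described genes of cholesterol uptake and efflux, 2 were higher and 3 lower (median -0.04). Abca1 (given above) and Mylip, a ubiquitin ligase, fell, Mylip with 16.1, 20.1 and 20.3 CPM in NTN libraries, against 69.2, 60.2 and 58.1 CPM in untreated libraries (-1.73 ± 0.17, adjusted p = 5.80e-06). Lpl, lipoprotein lipase, fell by 0.57. The synthesis genes are targets of SREBP2, and Abca1 and Mylip are targets of the sterol receptor LXR. The number of synthesis genes higher was 8 to 10 without any 1 library and 7 with the covariate.

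Glycolysis, iron and redox genes were higher in part. Of 14 described glycolysis genes, 7 were higher and 1 lower, with a median of 0.37, but 4 were higher and the median was -0.10 in length-rescaled counts, and 2 were higher and 2 lower by limma on log2(TPM + 1). Gapdh had 436, 394 and 402 CPM in NTN libraries, against 137, 119 and 117 CPM in untreated libraries (1.72 ± 0.16, adjusted p = 3.79e-06), Eno1 rose by 1.26 ± 0.196, and Aldoa by 0.75 ± 0.18. Pfkfb3, which makes an activator of phosphofructokinase, fell by 0.93. Gapdh and Eno1 have many processed pseudogenes, so their reads may be shared. Of 25 described oxidative stress genes, 8 were higher and 2 lower (median 0.19, but -0.06 in length-rescaled counts). Fth1, the heavy chain of ferritin, which stores iron, had 230.02, 242 and 247 CPM in NTN libraries, against 73.2, 87.1 and 75.9 CPM in untreated libraries (1.604 ± 0.14, adjusted p = 2.98e-06). Ftl1, the light chain, had 282, 264 and 313 CPM in NTN libraries, against 131, 130.1 and 129 CPM in untreated libraries (1.14 ± 0.15, adjusted p = 8.71e-05). Sod1, a superoxide dismutase, rose by 1.26 ± 0.19 and Gpx8 by 1.11 ± 0.17. The groups of these 4 genes were separate. Of 31 described lysosome and autophagy genes, 5 were higher and 3 lower, with a median of 0.00. Grn, progranulin, had 128, 115 and 93.2 CPM in NTN libraries, against 60.6, 63.8 and 56.4 CPM in untreated libraries (0.898 ± 0.15, adjusted p = 5.81e-04), Npc2 and Glb1 rose by 0.8 ± 0.16 and 1.69 ± 0.38 (Npc2 not called in length-rescaled counts, 0.65), and Laptm4a fell by 0.73.

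Proteasome genes were more often higher than lower, though in equal numbers by limma, and ubiquitin ligase genes were lower or not called. Of 33 described constitutive proteasome genes, 15 were higher and 2 lower, with a median of 0.39, and the 4 clearest rises were all beta subunits of the core particle: Psmb3 had 27.5, 24 and 27.4 CPM in NTN libraries, against 7.72, 13.2 and 13.9 CPM in untreated libraries (1.18 ± 0.23, adjusted p = 0.00206), and Psmb1, Psmb5 and Psmb2 rose by 0.95 ± 0.19, 0.94 ± 0.195 and 0.83 ± 0.18. Of 22 described ubiquitin ligases and hydrolases, 0 were higher and 11 lower, with a median of -0.47. Ube3a had 88.7, 104 and 86.2 CPM in NTN libraries, against 254, 229.9 and 205 CPM in untreated libraries (-1.303 ± 0.15, adjusted p = 2.17e-05). Nedd4 had 641, 727 and 614 CPM in NTN libraries, against 1136, 1059.6 and 1094 CPM in untreated libraries (-0.73 ± 0.14, adjusted p = 0.00151), and the hydrolases Usp7 and Usp9x fell (log2 fold changes -0.71 and -0.78). The 15 proteasome rises were 9 (without untreated replicate 3) to 13 without any 1 library, with 10 without untreated replicate 1, and 10 in length-rescaled counts. Limma on log2(TPM + 1) gave 6 higher and 6 lower, with a list median of 0.18 beside -0.35 over all described genes. The 11 falls were 8 to 13 without any 1 library but 2 with the covariate. Median transcript lengths were 1346 bases over the proteasome list and 4632 bases over the ligase list.

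More genes of the unfolded protein response were lower than higher: of 25 described, 2 were higher and 10 lower, with a median of -0.41. Atf6, a stress sensor of the endoplasmic reticulum, had 127, 141 and 131 CPM in NTN libraries, against 294, 235 and 236 CPM in untreated libraries (-0.93 ± 0.16, adjusted p = 6.56e-04). Xbp1, the transcription factor activated by IRE1, fell by 0.701, Edem1, which marks misfolded glycoproteins, fell by 0.67 and Pdia3, a disulfide isomerase, fell by 0.72. The 10 falls became 5 without NTN replicate 1, 6 without NTN replicate 2 and 1 with the covariate. Of 23 described heat shock chaperones, 2 were higher and 5 lower (median -0.12, and 0.01 when scaled over described genes). Cryab, a small heat shock protein, had 342, 371 and 369.96 CPM in NTN libraries, against 143, 111 and 123 CPM in untreated libraries (1.52 ± 0.15, adjusted p = 7.96e-06), and Dnajb1, a cochaperone of HSP70, had 122, 185 and 171 CPM in NTN libraries, against 41, 12.2 and 20.1 CPM in untreated libraries (2.71 ± 0.405, adjusted p = 9.27e-04). Hspa4l and Hspa4, relatives of HSP70, fell (log2 fold changes -0.81 and -0.64), with Hspa4l not called in length-rescaled counts (-0.42). The lower calls of this list were 2 to 6 without any 1 library, with 2 without NTN replicate 1 and 3 without NTN replicate 2 or untreated replicate 1, and 0 with the covariate. Of 32 described splicing factors, 1 was higher and 7 lower (median -0.17), with Srsf2 at 208, 229 and 285 CPM in NTN libraries, against 107, 127 and 119.9 CPM in untreated libraries (1.03 ± 0.16, adjusted p = 4.01e-04) as the rise and Hnrnpr (-0.85 ± 0.14), Hnrnpu (-0.76 ± 0.18) and Hnrnph1 (-0.66 ± 0.15) as the clearest falls. Those 7 became 11 without NTN replicate 3, 4 without untreated replicate 2 and 1 with the covariate.

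Cell cycle genes gave no common direction. Of 33 listed genes of S phase and mitosis, 12 were described, 3 were higher and 1 lower, with a median of 0.29. Pttg1, securin, had 69.1, 84.5 and 114 CPM in NTN libraries, against 21.8, 20.8 and 17 CPM in untreated libraries (2.17 ± 0.21, adjusted p = 4.71e-06), and E2f1 had 137, 119 and 87.5 CPM in NTN libraries, against 33, 36.4 and 37 CPM in untreated libraries (1.69 ± 0.21, adjusted p = 4.60e-05). Mki67 (above) was the third, and Mcm4, a replicative helicase subunit, fell by 0.897, with its call lost without NTN replicate 2 (-0.81). Top2a (0.24), Pcna (-0.09) and Birc5 (0.08), named after their values were seen, did not pass. Of 20 described D cyclins, CDK inhibitors and p53 targets, 6 were higher and 6 lower (median -0.02). Ccnd1, cyclin D1, had 61.8, 55.1 and 41.2 CPM in NTN libraries, against 12.2, 9.22 and 10.5 CPM in untreated libraries (2.31 ± 0.201, adjusted p = 2.63e-06), and Cdk6, its kinase partner, rose by 0.81 ± 0.16. The p53 targets Trp53inp1 and Sesn1 fell, the first with 47.7, 63.9 and 58.2 CPM in NTN libraries, against 200, 177 and 175 CPM in untreated libraries (-1.702 ± 0.15, adjusted p = 2.89e-06) and the second fell by 1.07.

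The NTN libraries varied about as much as the untreated ones, with a median SD of log2 CPM per gene of 0.19 in NTN and 0.22 in untreated libraries. The 5 described genes with the largest SD among NTN libraries were H2-Ab1, H2-Aa, Cd74, Matn4 and the pseudogene-named Rpl10-ps3. H2-Ab1, a chain of an MHC class II molecule, had 7.16, 31 and 0.19 CPM in NTN libraries, against 1.62, 2.54 and 6.1 CPM in untreated libraries. H2-Aa, its partner chain, had 7.26, 33 and 0.664 CPM in NTN libraries, against 2.39, 1.91 and 1.07 CPM in untreated libraries, and Cd74, the invariant chain, had 9.27, 38.9 and 1.09 CPM in NTN libraries, against 1.93, 5.77 and 1.26 CPM in untreated libraries. All 3 were highest in NTN replicate 2 and lowest of the NTN libraries in replicate 3, and none passed the test, though each did without NTN replicate 3 (2.48, 3.49 and 2.99). Matn4, a matrix protein, had 27, 31.6 and 339 CPM in NTN libraries, against 137, 119 and 105 CPM in untreated libraries, with NTN replicate 3 above and the other NTN libraries below every untreated library. Rpl10-ps3 had 0, 21.6 and 1.52 CPM in NTN libraries, against 177, 4.29 and 0 CPM in untreated libraries.

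The same comparison in MyD88pko mice, from 5 separate libraries (3 NTN and 2 untreated) in the same fit, gave calls of the same direction for most of these genes. Of the 1349 genes higher in PodTOM NTN, 1311 had a positive fold change in MyD88pko and 864 (64.0%) were called higher there, against 12.6% of all described genes, with a median log2 fold change of 1.02. Of the 1859 lower genes, 1817 had a negative fold change and 1041 (56.0%) were called lower, against 15.5% of all described genes, with a median of -0.63. Only 1 gene was called in the other direction. In MyD88pko podocytes, 69 of the 79 ribosomal genes and 60 of the 73 nuclear oxidative phosphorylation genes were higher, 8 of the 13 mitochondrially encoded genes were lower and 1 was higher, 10 of the 20 SRF targets were higher, and 12 of the 17 cholesterol synthesis genes were higher with 1 lower. The untreated libraries of that genotype are its own, so the comparisons share no library. In both genotypes every NTN library had more genes with a count than any untreated library. In MyD88pko these were 28511, 28498 and 24305 genes in NTN and 19670 and 19202 in untreated libraries. In PodTOM they were 27343, 25677 and 24652 in NTN and 18371, 19933 and 19817 in untreated libraries. The part of this difference in the shared calls was not tested. Among the lists with fewer calls there, the unfolded protein response had 2 higher and 1 lower of 25, and the interferon-stimulated genes had 5 higher and 1 lower of 36. By edgeR's test of the difference between the responses, 0 described genes passed at an adjusted p under 0.05 (631 at an unadjusted p under 0.05), while DESeq2 called 30. Without the count filter 40 passed, and with the covariate 2. A gene that missed the threshold is not shown to respond alike in the 2 genotypes.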

How the data were processed

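RNA of FACS-sorted podocytes was preamplified with the Ovation RNASeq System V2 and made into Nextera XT libraries, neither of which keeps strand, so overlapping and antisense genes cannot be told apart. The authors deposited expected counts (estimated counts) per transcript from kallisto, not normalized, and the submitters' processing notes name FastQC, cutadapt, SAMtools, kallisto and sleuth and the builds mm10 and GRCm38. Of 109282 transcripts, 107987 matched GENCODE M21 on GRCm38, and the 1295 others (0.467% to 0.638% of counts) were left out. Estimated counts were summed per gene and rounded to whole numbers. The deposited TPM column was not used, and TPM was recomputed from matched transcripts. Genes passing filterByExpr (minimum count 10) were given TMM factors, and edgeR 4.0.16 (R 4.3.3) tested them by its quasi-likelihood method with robust dispersion, over all 11 libraries with 4 group means, adjusted by Benjamini-Hochberg over 21200 genes at a threshold of 0.05. CPM are TMM-scaled. Principal components used log2(CPM + 0.5).

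Named genes are those the study names, the 12 largest rises and falls without overlap, the 8 largest gains and losses of CPM, the 12 highest by TPM in untreated libraries, up to 4 members of each list by adjusted p (the 2 most abundant where none passed), any of the difference test up to 8, and the 5 most variable in NTN. Some genes chosen by this rule are not reported here. The members and the gene lists were chosen with earlier results of these data known. Members of the H2 family, Sly and ribosomal genes share reads with near copies. Alternatives were DESeq2 1.42.0, RLE factors, TMM over described genes, no count filter, the 6 libraries alone, length-scaled TPM counts, limma 3.58.1 on log2(TPM + 1), a receptor-signal covariate, a minimum of 20 CPM, each library left out and, added after seeing the data, 10 CPM in both groups, list counts under each fit and the mesangial marker sum without Tagln and Acta2. The test was checked on simulated counts. Promoters are RefSeq sequences (GRCm38.p6), found for 7425 of 9319 described symbols. The floor of 3 counts covers counting error only, and each ± is a standard error taken as the size of the log2 fold change over the square root of its F statistic. Tables and figures were made in Python 3.11.15 with pandas 2.3.3, numpy 2.4.6, matplotlib 3.10.9 and scipy 1.17.1.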

Additional observations from a re-analysis of the deposited data

Results flagged for a closer look

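Signal lay outside the described genes in NTN libraries. Of 1956 Olfr and Vmn genes, receptor genes of the nose, 1695, 1453 and 1324 had a count above 0 in NTN replicates 1, 2 and 3, against 694, 734 and 728 in untreated replicates 1, 2 and 3. Genes with Gm symbols, mostly predicted genes, took 12%, 13.5% and 13.3% of the counts in NTN replicates 1, 2 and 3, against 3.32%, 3.59% and 3.64% in untreated replicates 1, 2 and 3. Both classes were left out of the described genes, and in each the groups do not overlap. The same libraries differed in depth, which was larger in every NTN library than in any untreated library. The part of depth in these counts was not tested.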

How the results depend on the processing

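The number of described genes higher in NTN was 1349, and it was 1154 to 1748 with RLE factors, TMM over described genes, DESeq2, no count filter, the 6 PodTOM libraries alone and length-scaled counts. It moved to 717 with limma on log2(TPM + 1), 750 with the receptor signal as a covariate, and 854 with 10 CPM required in both groups, an alternative chosen after seeing the data. The number lower was 1859, and it moved to 2926 with limma on log2(TPM + 1) and 366 with the covariate. Without any 1 library, the numbers were 988 to 1267 higher and 1176 to 1930 lower, the smallest number lower being without NTN replicate 1. The difference between genotypes was 0 genes, and 0 to 0 without any 1 library, but 30 with DESeq2, 40 with no count filter and 2 with the covariate (Mid1 and 3110070M22Rik). The cause of these shifts was not tested. Of 208 named genes past the threshold, 188 stayed past it without each library and 148 with the covariate, with 60 past it no longer. DESeq2 and RLE factors kept all 208. Fnbp1 changed sign to -0.25 with length-scaled counts and -0.49 with limma on log2(TPM + 1), and Matn4, not called (0.14), ranged from -2.04 without NTN replicate 3 to 0.63 without NTN replicate 1. By limma on log2(TPM + 1), lists that had more members higher but then had more lower were basement membrane chains (3 higher, 6 lower), matrix proteases (3 and 5), integrins (8 and 10), junction genes (4 and 5), tubulins (4 and 5), YAP targets (4 and 5), TNF receptors (2 and 4), VEGF and semaphorin genes (0 and 9), translation factors (6 and 15) and lysosome genes (2 and 8), and the counts were equal for glycolysis, the proteasome and mitosis. By that fit the median over all described genes was -0.35, so these list counts lie within a shift of all described genes. TMM over described genes ended the excess of lower members in 5 lists (toll-like receptors, WNT and Notch, heat shock chaperones, cholesterol uptake and parietal genes). No paired analysis was possible because the labels give the groups no shared replicate numbers.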
